A study of Homo sapiens with 6 samples.

Results

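Nuclear-encoded subunits of respiratory chain complexes II, III and IV and of the ATP synthase (complex V) were followed in AGS cells, a cell line established from a human gastric adenocarcinoma, under knockdown of the splicing factor SRSF2. The 36 genes were chosen by name from knowledge of the complexes, under the older ATP5 symbols that the count table uses, and all 36 were found among its 56303 gene entries: 4 of complex II, 9 of complex III, 10 of complex IV and 13 of complex V. The WT group was AGS cells labelled wild-type (3 libraries), and the siSRSF2 group was AGS cells titled siSRSF with the genotype label SRSF2 knockdown (3 libraries). Both share a growth protocol in DMEM/F12 with serum. How and for how long SRSF2 was silenced, and whether WT cells were given a control siRNA, is not in the labels. Neither do they say that replicates came from separate cultures, so the p-values take in only library-to-library spread, which may be technical. In such bulk RNA, fewer cells with an mRNA and less of it per cell cannot be told apart.

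Oxidative phosphorylation passes electrons from fuel molecules to oxygen and uses the energy to make ATP. Complex II (succinate dehydrogenase) also works in the citric acid cycle. It hands electrons to ubiquinone, complex III passes them to cytochrome c, and complex IV passes them to oxygen. Complexes III and IV pump protons, and complex V lets the protons back to drive ATP synthesis. Complexes III, IV and V combine the nuclear-encoded subunits described here with a few subunits encoded in mitochondrial DNA, whereas complex II is wholly nuclear-encoded. Many cancer cells combine respiration with high glycolysis.

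Levels are given in CPM, read counts relative to library size after TMM scaling, and changes as log2 fold changes of siSRSF2 over WT with their standard error (SE). A gene passed when the quasi-likelihood test of edgeR, fitted on all 23689 genes with enough counts, gave a Benjamini-Hochberg adjusted p under 0.05. Total counts ranged from 26610937 to 36651623 in siSRSF2 libraries and from 47518943 to 50021152 in WT libraries, and the 36 genes took between 0.355% and 0.425% of the counts of a library. SRSF2 measured 44.5, 46.4 and 44.1 CPM in WT and 21.6, 21.8 and 24.9 CPM in siSRSF2 libraries (log2 fold change -0.98, SE 0.064, edgeR adjusted p = 4.39e-13), and it shares 36.7% of its merged exon length with MFSD11 on the opposite strand. Of the epithelial markers checked, KRT8 and KRT18 were abundant (3236 ± 156 and 1099 ± 53.5 CPM in WT, SD, n = 3), EPCAM was low (5.005 ± 0.500 CPM) and CDH1 was under 1 CPM in every library. Of the 8 epithelial markers, which summed to between 4137 and 4557 CPM in WT and between 3746 and 4006 CPM in siSRSF2 libraries, CLDN4 (1.45 ± 0.335 to 4.99 ± 0.974 CPM, log2 fold change 1.79), CLDN7 (1.70 ± 0.114 to 10.05 ± 0.481 CPM, 2.56) and ELF3 (8.37 ± 1.47 to 51.4 ± 1.46 CPM, 2.62) rose. KRT8 fell (-0.22, edgeR adjusted p = 0.00018; -0.09 and 0.0697 under library totals), and EPCAM, KRT18, KRT19 and CDH1 did not pass, although EPCAM passed as higher under library totals (0.35, 0.0214). Summed levels of 7 leukocyte markers ranged from 29.4 to 31.1 CPM in WT and from 36.6 to 41.1 CPM in siSRSF2 libraries, with TYROBP at 0 in all of them. The 6 fibroblast markers summed to between 22.5 and 23.1 CPM in WT and between 51.3 and 57.1 CPM in siSRSF2 libraries, and the 5 endothelial markers to between 3.27 and 3.46 against 1.21 to 2.28 CPM. KRT8 and KRT18 share exon positions. The part of these markers in the results below was not tested.

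Silencing of SRSF2 was accompanied by modest, mostly downward changes of the subunit mRNAs. Of the 36 genes, all of which passed the low-count filter, 5 rose, 19 fell and 12 did not pass the test. The rises were in complexes II and IV (SDHA, SDHC, COX6C, COX7C and COX5B), and the falls were in all 4 complexes. Changes ran from 1.42-fold higher (SDHA) to 1.755-fold lower (UQCR10), and the median log2 fold change was -0.18, beside 0.02 over all genes tested. Among all genes tested 59.1% were called, 30.1% as higher and 29.0% as lower, beside 66.7%, 13.9% and 52.8% of the subunit genes. Among the 9159 genes with a mean of at least 10 CPM, however, 50.7% were called lower and 29.2% higher. Of the 32 subunits at that level 16 fell and 5 rose, so their share of falls was near that of genes of like level. A change of at least 2-fold passed in 12.6% of those genes and in none of the 36 subunits.

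The groups did not overlap in CPM for 24 of the 36 genes, 5 higher and 19 lower, beside 63.8% of all genes tested (32.5% higher and 31.2% lower). This share was not computed for genes of at least 10 CPM, of which 50.7% were called lower. The 5 higher and 19 lower genes differ from the calls in COX5B, which passed with overlapping groups, and ATP5H, which did not pass although its groups were separate.

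Several directions depended on the scaling of the libraries. With scaling by library totals alone, the median log2 fold change of all genes moved up by 0.13, and 12 subunits were then called higher and 14 lower, beside 36.1% and 23.2% of all genes. The median of the subunits lay 0.20 below that of all genes under both scalings (differences of -0.199 and -0.198). A change of scaling moves all genes nearly alike, so the equal differences are no separate support. A median over genes of at least 10 CPM was not computed. When tested against a change of 1.2-fold in place of no change, 1 subunit (SDHA) passed as higher and 11 passed as lower, beside 23.5% and 20.9% of all genes (44.4% together). Shares among genes of at least 10 CPM were not computed for this test or under library totals. Values under library totals are therefore given below for subunits whose call or direction differed.

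**Figure D1:**
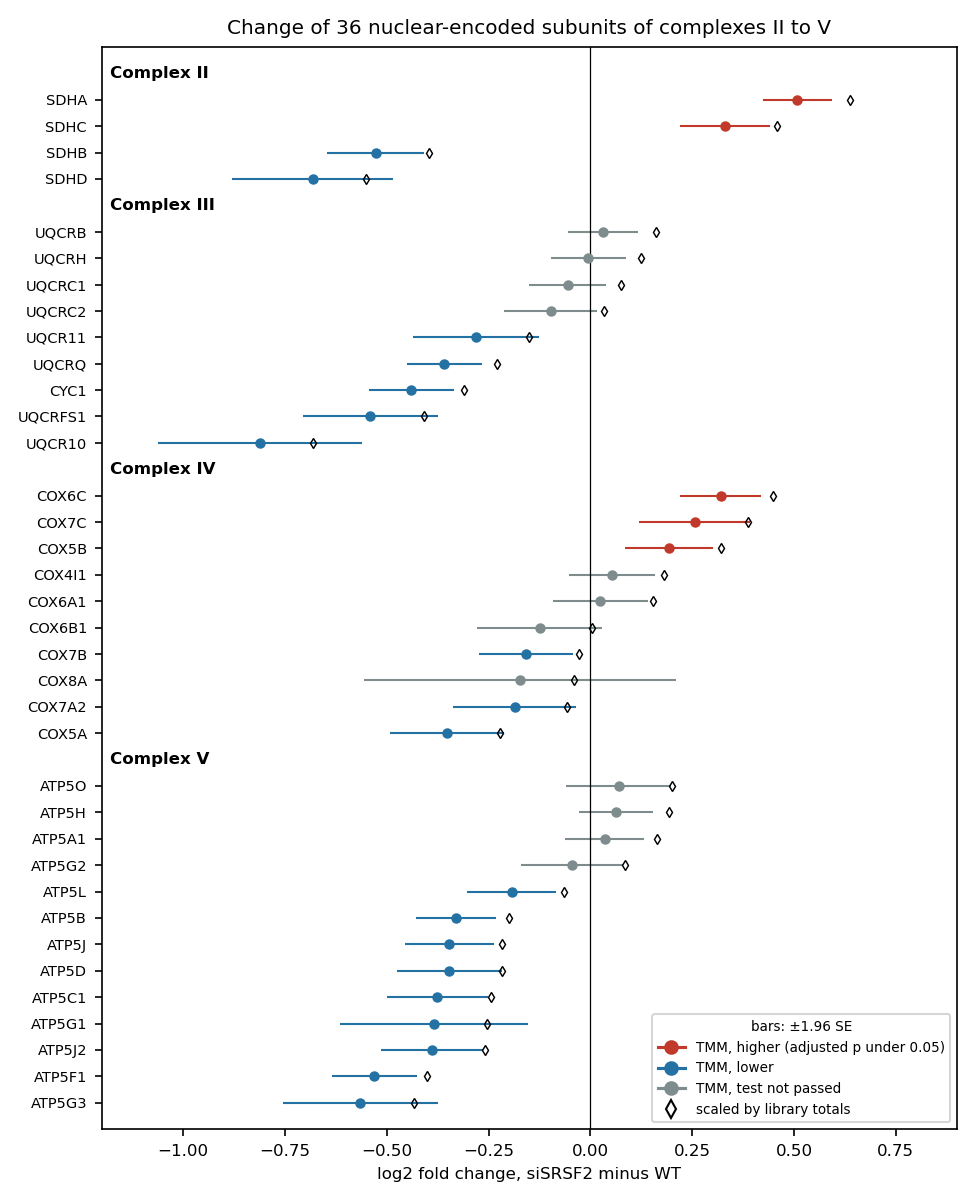
Log2 fold change of siSRSF2 over WT for each of the 36 subunits, grouped by complex (filled circles, TMM scaling, bars of the 95% interval; open diamonds, scaling by library totals). SDHA lies farthest to the right and UQCR10 farthest to the left, and the diamonds lie to the right of the circles throughout.

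Promoter sequence is shown because GABPA and NRF1, which encode factors long known to bind respiratory chain promoters, were themselves measured (below). RefSeq promoters (GRCh38.p14, from 250 bases before to 50 bases after the gene start) were matched for 28 of the 36 genes. The letters CCGGAAG, the core bound by ETS factors such as GABPA, occurred on either strand in 14 of these 28 genes, in 10.3% of all 35116 promoters and in 20.2% of the tested genes with a matched promoter. The match was present in 1 of 3 genes that rose, 6 of 14 that fell and 7 of 11 that did not pass. The NRF1 motif, a palindrome of 10 letters shown in capitals in the first SDHD line below, occurred in 2 of the 28 genes, 1.24% of all promoters and 2.45% of the tested genes with a promoter. The YY1 letters AAGATGGC occurred on either strand in 5 of the 28 genes, 2.89% of promoters and 5.92% of such tested genes. The stretches below show a match in genes that fell (SDHD, SDHB, UQCRQ, ATP5C1, ATP5J), rose (COX5B) or did not pass (ATP5H), written 5′ to 3′ along the gene with the matched letters in capitals. CTTCCGG is the ETS core read on the opposite strand.
SDHD, NRF1 letters, chr11:112086753-112086782, plus strand: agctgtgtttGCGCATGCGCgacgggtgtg
ATP5C1, NRF1 letters, chr10:7788145-7788174, plus strand: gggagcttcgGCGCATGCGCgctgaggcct
SDHD, ETS core, chr11:112086785-112086814, plus strand: ccgcctctcgaCTTCCGGttcacccagcat
SDHB, ETS core, chr1:17054142-17054171, minus strand: cacccgggaaaCCGGAAGccgcctcccact
UQCRQ, ETS core, chr5:132866577-132866606, plus strand: aatggtatctcCCGGAAGttacctcacgac
COX5B, ETS core, chr2:97646014-97646043, plus strand: gaagcccgcccCCGGAAGtccctcctgtct
ATP5H, ETS core, chr17:75047052-75047081, minus strand: ccgggaagataCTTCCGGaaccagccctca
ATP5J, ETS core, chr21:25735066-25735095, minus strand: tgccaggggacCCGGAAGcacttaccctcc
A match is a run of letters in this window and not evidence of binding.

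Complex II split evenly, with 2 of its 4 subunit mRNAs higher and 2 lower. Among genes of at least 10 CPM, 29.2% were called higher and 50.7% lower. SDHA and SDHB form its catalytic head: SDHA carries the flavin that oxidises succinate, and SDHB carries the iron-sulfur clusters that lead electrons on. SDHA (chromosome 5, 218241 to 256700, GRCh38) measured 390.5, 398 and 411 CPM in the WT libraries and 554, 580.3 and 571 CPM in the siSRSF2 libraries. All siSRSF2 libraries lay above all WT libraries (log2 fold change 0.51, SE 0.043, edgeR adjusted p = 9.26e-11). SDHB (chromosome 1, 17018722 to 17054170) went the other way, from 37.4, 40.7 and 41.1 CPM to 26.5, 27.9 and 28.2 CPM, again without overlap (-0.53, SE 0.061, edgeR adjusted p = 2.9e-08). SDHC and SDHD anchor the head in the inner membrane and hold its heme. SDHC (chromosome 1, 161314257 to 161375340) measured 35.6, 34.8 and 35.1 CPM in WT and 45.7, 44.9 and 42.0 CPM in siSRSF2 libraries, all of them higher (0.33, SE 0.056, edgeR adjusted p = 1.34e-05; 0.0848 against a change of 1.2-fold). SDHD (chromosome 11, 112086773 to 112120013) measured 10.2, 11.6 and 11.3 CPM in WT and 6.92, 7.27 and 6.41 CPM in siSRSF2 libraries, all of them lower (-0.68, SE 0.10, edgeR adjusted p = 1.64e-06). Each of these 4 directions was the same under scaling by library totals, at 0.64, -0.40, 0.46 and -0.55 for SDHA, SDHB, SDHC and SDHD, and each call held without any one library.

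The opposite movement within the catalytic head can be read inside each library, where scaling plays no part. The log2 ratio of SDHA to SDHB counts was 3.39, 3.29 and 3.32 in WT libraries and 4.38, 4.38 and 4.34 in siSRSF2 libraries. The ratio was thus 2.05-fold larger after silencing (difference 1.04, SE 0.032), with groups far apart. A two-sided exact permutation test returned p = 0.1 (0.133 adjusted over the 4 ratios compared), and 3 libraries against 3 cannot go lower. SDHA has 3 pseudogene entries, SDHAP1, SDHAP2 and SDHAP3, which together held 13.0% of the joint count. Adding their reads to SDHA gave a difference of 0.99.

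**Figure D2:**
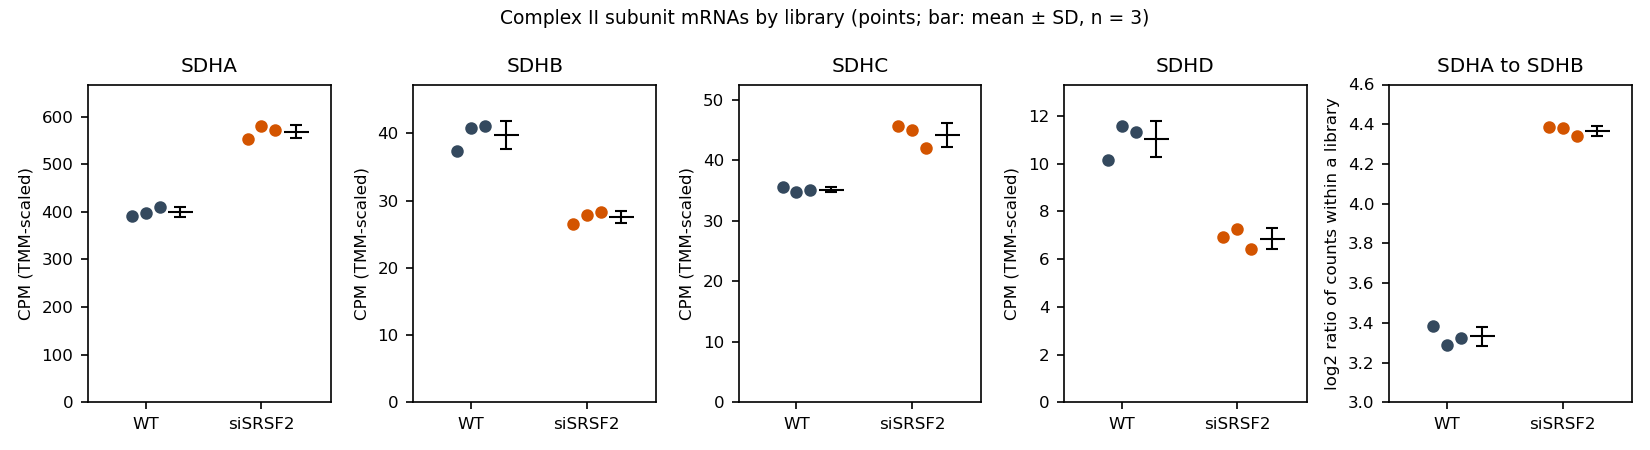
Levels of the 4 complex II subunit mRNAs in CPM and the log2 ratio of SDHA to SDHB counts within each library (points, libraries; bars, mean and SD, n = 3 per group). SDHA and SDHC are higher and SDHB and SDHD lower in siSRSF2, and the ratio rises from 3.33 to 4.37 on average (its axis does not start at 0).

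In complex III, 5 of 9 subunit mRNAs fell, none rose and 4 did not pass. This share of falls was near the 50.7% called lower among genes of at least 10 CPM, of which 29.2% were called higher. Both redox subunits fell. CYC1, cytochrome c1, which carries the heme that reduces cytochrome c, measured 58.7, 61.8 and 60.9 CPM in WT and 44.7, 46.2 and 42.8 CPM in siSRSF2 libraries (chromosome 8, 144095027 to 144097525; log2 fold change -0.44, SE 0.053, edgeR adjusted p = 6.12e-08). UQCRFS1, the Rieske iron-sulfur protein, measured 17.7, 15.8 and 16.9 CPM in WT and 10.5, 12.2 and 11.9 CPM in siSRSF2 libraries (chromosome 19, 29205321 to 29213541; -0.54, SE 0.085, edgeR adjusted p = 4.01e-06). Neither gene had overlapping groups. The core proteins, large subunits that face the matrix and do not carry electrons, did not pass. UQCRC1 was at 131 ± 1.66 CPM in WT and 126 ± 7.42 CPM in siSRSF2 cells (SD, n = 3 per group), with a log2 fold change of -0.06 that turned to 0.07 under library totals. Without siSRSF2 replicate 3 it passed as lower (-0.11, edgeR adjusted p = 0.0375). UQCRC2 was at 41.9 ± 2.06 and 39.2 ± 1.84 CPM (-0.10, and 0.03 under library totals).

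The small supernumerary subunits of complex III, which surround the catalytic core and help it assemble, were unequal. UQCR10 (chromosome 22, 29767369 to 29770413) showed the lowest log2 fold change of all 36 genes. It measured 6.36, 7.31 and 7.40 CPM in WT and 3.39, 4.26 and 4.27 CPM in siSRSF2 libraries, a 1.755-fold fall without overlap (log2 -0.81, SE 0.13, edgeR adjusted p = 4.55e-06). Its level rests on 92 counts in siSRSF2 replicate 1, which stood lowest. UQCRQ, a ubiquinone-binding subunit, measured 102, 104 and 98.4 CPM in WT and 77.0, 81.6 and 78.8 CPM in siSRSF2 libraries (-0.36, SE 0.047, edgeR adjusted p = 2.79e-07). UQCR11 measured 21.6, 21.3 and 23.2 CPM in WT and 19.0, 19.6 and 15.9 CPM in siSRSF2 libraries (-0.28, edgeR adjusted p = 0.00332), and it no longer passed under library totals (-0.15, adjusted p = 0.103). By contrast, the most abundant mRNAs of the complex showed log2 fold changes near 0. UQCRH, the hinge protein that helps dock cytochrome c, measured 315, 334 and 332 CPM in WT and 347, 317 and 314 CPM in siSRSF2 libraries, with overlapping groups. Its log2 fold change was -0.01 (95% interval -0.10 to 0.09) and became 0.12 under library totals, where it passed (edgeR adjusted p = 0.0152). UQCRB measured 242, 237 and 240.3 CPM in WT against 254, 243 and 238 CPM in siSRSF2 (0.03, and 0.16 with edgeR adjusted p = 0.00144 under library totals).

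The nuclear-encoded subunits of complex IV (cytochrome c oxidase) surround the mitochondrially encoded catalytic core and tune its stability and activity. Of 10, 3 rose, 3 fell and 4 did not pass, and none passed when tested against a change of 1.2-fold. The shares among genes of at least 10 CPM were 29.2% higher and 50.7% lower. The test against 1.2-fold was passed by 44.4% of all genes. COX6C measured 282, 279 and 291 CPM in WT and 367, 375 and 320.3 CPM in siSRSF2 libraries, without overlap (chromosome 8, 99873200 to 99894062; log2 fold change 0.32, SE 0.051, edgeR adjusted p = 7.26e-06). COX7C, the most abundant of the 36 mRNAs, measured 542, 566 and 598 CPM in WT and 642, 625 and 769 CPM in siSRSF2 libraries (chromosome 5, 86617904 to 86620962; 0.26, SE 0.070, edgeR adjusted p = 0.00636). All siSRSF2 libraries were above all WT libraries, and replicate 3 stood highest: without it the log2 fold change was 0.15, still past the test. COX5B, a zinc-binding subunit on the matrix side, measured 93.3, 95.7 and 107 CPM in WT and 115, 118 and 105 CPM in siSRSF2 libraries, where the lowest siSRSF2 value lay below the highest WT value (0.19, edgeR adjusted p = 0.00412). Its call was lost without WT replicate 1 (0.15, edgeR adjusted p = 0.057).

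COX5A, which lies beside COX5B on the matrix side, fell, from 35.1, 39.7 and 36.9 to 31.1, 25.6 and 30.9 CPM without overlap (log2 fold change -0.35, SE 0.071, edgeR adjusted p = 0.000144). COX7A2 measured 35.6, 35.7 and 34.5 CPM in WT and 34.2, 26.2 and 32.9 CPM in siSRSF2 libraries (-0.19, edgeR adjusted p = 0.042). COX7B, an X-linked subunit needed for assembly, measured 47.3, 47.8 and 49.5 CPM in WT against 42.3, 40.4 and 46.9 CPM in siSRSF2 (-0.16, edgeR adjusted p = 0.0226). Neither of the latter 2 falls held under library totals (adjusted p = 0.541 and 0.726). The COX7A2 call was also lost without siSRSF2 replicate 2 (-0.08) and without WT replicate 1 (-0.19), 2 (-0.18) or 3 (-0.21), and the COX7B call without siSRSF2 replicate 1 (-0.14), siSRSF2 replicate 2 (-0.12) or WT replicate 3 (-0.15). COX4I1, an early-assembling subunit, measured 314, 306 and 332 CPM in WT and 348, 343 and 296 CPM in siSRSF2 libraries (0.05, edgeR adjusted p = 0.424; 0.18 and 0.00205 under library totals). Without siSRSF2 replicate 3, its lowest library, it passed as higher (0.12, edgeR adjusted p = 0.0294). COX6A1 was at 39.6 ± 2.59 and 40.3 ± 1.62 CPM (log2 fold change 0.02, and 0.15 with edgeR adjusted p = 0.0291 under library totals), and COX6B1 at 19.3 ± 1.66 and 17.8 ± 1.07 CPM (-0.12, turned to 0.0047 under library totals). Without WT replicate 1, COX6B1 passed as lower (-0.20, edgeR adjusted p = 0.0496). COX8A was counted at only 2.08, 2.41 and 2.87 CPM in WT and 1.62, 2.54 and 2.28 CPM in siSRSF2 libraries, and its interval was wide (-0.17, 95% interval -0.55 to 0.21). On 34.5% of its merged exon length COX8A shares positions with the entry AP000721.4 on the same strand, which held 8432 counts against 566 for COX8A.

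In complex V, 9 of 13 subunit mRNAs fell, none rose and 4 did not pass. These counts stand beside 50.7% called lower and 29.2% called higher among genes of at least 10 CPM. Its catalytic F1 head is built of alpha subunits (ATP5A1) and beta subunits (ATP5B), which hold the ATP-making sites. ATP5B (chromosome 12, 56638175 to 56646068) measured 309, 327 and 336 CPM in WT and 238, 262 and 274 CPM in siSRSF2 libraries, without overlap (log2 fold change -0.33, SE 0.050, edgeR adjusted p = 2.77e-06). ATP5A1 (chromosome 18, 46080248 to 46104334) measured 99.5, 106 and 98.1 CPM in WT against 101, 109.6 and 100.01 CPM in siSRSF2 with overlapping groups (0.03, edgeR adjusted p = 0.574), and passed as higher under library totals (0.16, adjusted p = 0.00702). The central stalk turns inside the head. Its subunits ATP5C1 (gamma) and ATP5D (delta) both fell, ATP5C1 from 38.2, 37.6 and 35.6 to 27.2, 27.6 and 31.0 CPM (-0.38, edgeR adjusted p = 1.17e-05) and ATP5D from 30.1 ± 0.407 to 23.6 ± 1.70 CPM (-0.35, edgeR adjusted p = 5.38e-05).

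The peripheral stalk, which keeps the head from turning along, was divided. ATP5F1 (subunit b) measured 85.3, 94.9 and 84.4 CPM in WT and 59.3, 60.2 and 63.6 CPM in siSRSF2 libraries, a 1.44-fold fall (chromosome 1, 111448864 to 111462773; log2 -0.53, SE 0.053, edgeR adjusted p = 2.35e-09). ATP5J (subunit F6) fell from 47.3 ± 1.78 to 37.2 ± 0.797 CPM (-0.35, edgeR adjusted p = 5.56e-06). ATP5H (subunit d) measured 83.3, 86.6 and 87.5 CPM in WT and 89.4, 88.5 and 91.0 CPM in siSRSF2 libraries. All siSRSF2 values of ATP5H were above all WT values, but the difference did not pass (0.06, edgeR adjusted p = 0.26) except under library totals (0.19, 0.00106) or with a filter on mean CPM (0.11, 0.0305). ATP5O, the oligomycin sensitivity protein that joins the stalk to the head, was at 26.7 ± 0.277 and 27.9 ± 2.06 CPM (0.07; 0.20 with edgeR adjusted p = 0.0154 under library totals). The membrane accessory subunits ATP5J2 (f) and ATP5L (g) fell. ATP5J2 measured 57.1, 58.7 and 67.9 CPM in WT and 45.8, 44.5 and 50.1 CPM in siSRSF2 libraries (-0.39, edgeR adjusted p = 1.33e-05), and ATP5L 53.1 ± 1.71 and 46.5 ± 2.70 CPM (-0.19, edgeR adjusted p = 0.00406; 0.349 under library totals).

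The ring of c subunits, the proton-driven rotor, is encoded by 3 genes whose precursors differ in their import signals and yield the same mature protein. ATP5G2 was the most abundant and did not pass, at 47.4, 50.1 and 46.2 CPM in WT and 46.2, 41.8 and 51.4 CPM in siSRSF2 libraries (log2 fold change -0.04, edgeR adjusted p = 0.577; 0.09 under library totals). ATP5G3 measured 16.9, 18.6 and 16.4 CPM in WT and 11.96, 9.78 and 13.5 CPM in siSRSF2 libraries, without overlap (chromosome 2, 175176258 to 175184607; -0.56, SE 0.097, edgeR adjusted p = 1.89e-05). ATP5G1 measured 6.38, 6.85 and 6.43 CPM in WT against 4.64, 5.35 and 5.02 CPM in siSRSF2 (chromosome 17, 48892765 to 48895871; -0.38, SE 0.12, edgeR adjusted p = 0.00654; 0.0737 under library totals). Within libraries, the log2 ratio of ATP5G2 to ATP5G3 counts lay between 1.43 and 1.496 in WT and between 1.94 and 2.09 in siSRSF2 libraries, without overlap (difference 0.52, SE 0.055, exact permutation p = 0.1 and 0.133 adjusted over 4 ratios, two-sided). The ratio of ATP5G1 to ATP5G2 was lower in siSRSF2 (difference -0.34, SE 0.12, exact permutation p = 0.1 and 0.133 adjusted), where siSRSF2 replicate 2 lay close to the WT values. For ATP5G1 to ATP5G3 the groups overlapped (difference 0.18, SE 0.18, exact permutation p = 0.5), and without siSRSF2 replicate 2 the difference was 0.01. Per length of merged exons, ATP5G2 made up 70.4% ± 0.300 of the summed c-ring mRNA level in WT and 76.1% ± 0.960 in siSRSF2 cells (SD, n = 3 per group). How the level divides between the genes depends on their merged lengths (2615 bases for ATP5G1, 3991 for ATP5G2 and 6780 for ATP5G3).

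**Figure D3:**
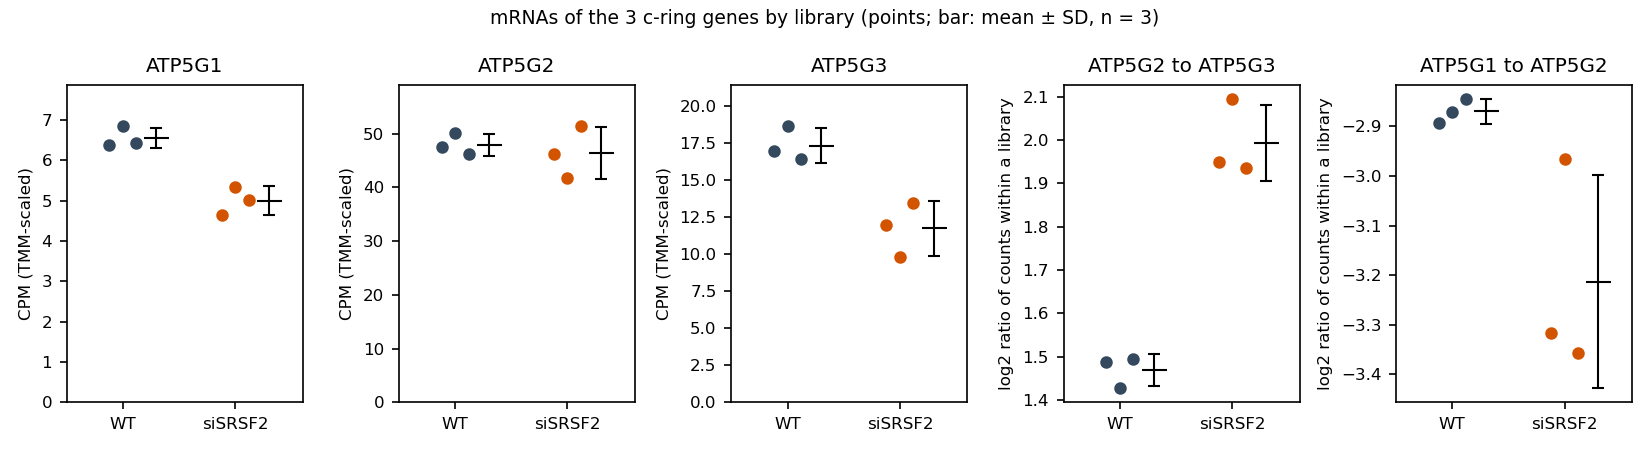
Levels in CPM of the 3 genes that encode the c ring and log2 ratios of their counts within each library (points, libraries; bars, mean and SD, n = 3 per group; ratio axes do not start at 0). ATP5G1 and ATP5G3 are lower in all siSRSF2 libraries, ATP5G2 overlaps, and the ATP5G2 to ATP5G3 ratio rises by 0.52 on the log2 scale.

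Summed over their members, complexes differed in direction. The 4 complex II mRNAs summed to 474, 485 and 498 CPM in WT and 633, 660.3 and 648 CPM in siSRSF2 libraries, a sum that is mostly SDHA: without it the other 3 came to 85.9 ± 2.46 CPM in WT and 78.6 ± 1.76 CPM in siSRSF2 cells (82.2 ± 2.33 and 82.2 ± 1.84 CPM under library totals). Complex V summed to 901, 939.7 and 939 CPM in WT and 756, 785 and 817 CPM in siSRSF2 libraries, lower in every one. Complex IV went from 1450.2 ± 56.3 to 1639 ± 24.3 CPM and complex III from 947 ± 11.9 to 893 ± 19.2 CPM (SD, n = 3 per group). The complex IV sum includes COX7C (568 ± 28.0 to 679 ± 78.5 CPM) and COX6C (284 ± 6.39 to 354 ± 29.6 CPM), both abundant and higher. Of its 10 members, 3 rose and 3 fell, and the sum without COX7C and COX6C was not computed. Under library totals the complex V mean was lower (886 ± 21.6 to 822 ± 47.4 CPM) but the groups overlapped, as siSRSF2 replicate 3 (868 CPM) lay above WT replicate 1 (862 CPM), whereas complex III turned to slightly higher (906 ± 14.3 to 934 ± 3.03 CPM). All 36 genes together summed to 3810.0 ± 92.9 CPM in WT and 3965 ± 35.6 CPM in siSRSF2 cells. Leaving out SDHA and COX7C, the sum was 2842 ± 55.3 and 2717 ± 45.7 CPM, an order that turned under library totals (2717 ± 47.3 and 2842 ± 34.8 CPM).

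**Figure D4:**
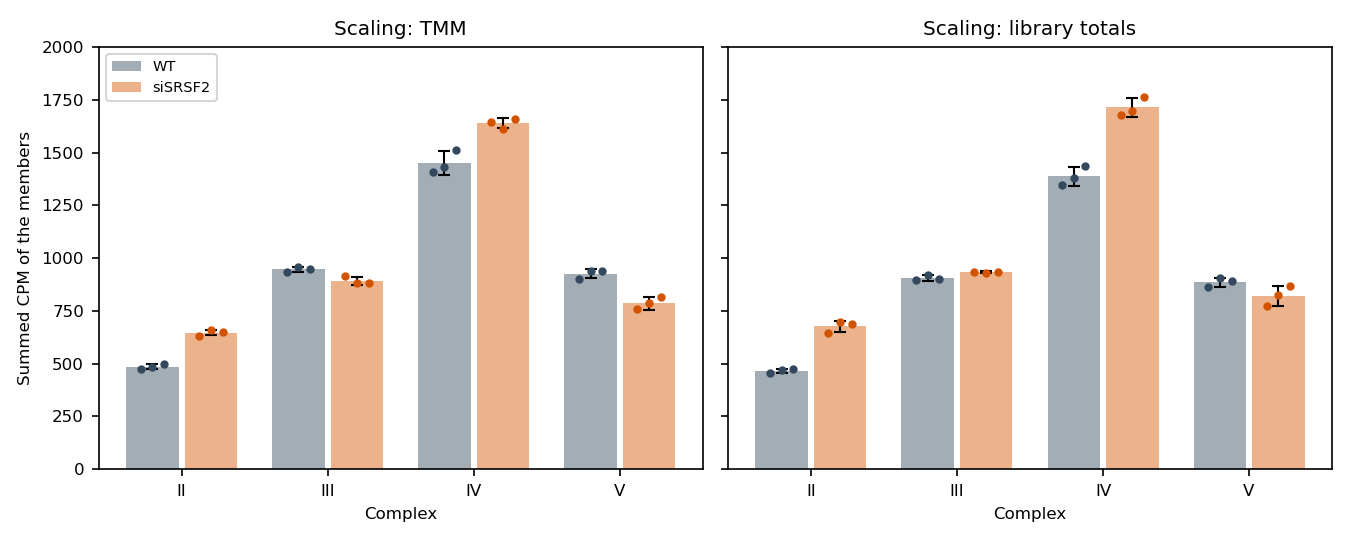
Summed CPM of the members of each complex under TMM scaling and under scaling by library totals (bars, mean; error bars, SD, n = 3 per group; points, libraries). The sums of complexes II and IV are higher in siSRSF2 under both scalings, although single members of each went both ways. The complex V mean is lower under both, with overlapping groups under library totals, and complex III changes direction.

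The subunit mRNAs differed widely in level although the proteins are built into complexes in fixed proportions. Per kilobase of merged exon length (RPKM, WT mean ± SD, n = 3), COX7C (285 ± 14.03), UQCRH (232 ± 7.46), ATP5B (139.6 ± 5.87) and COX6C (92.5 ± 2.08) stood highest, each apart from the next by more than its SD. The lowest were SDHC (2.48 ± 0.0267), ATP5G1 (2.51 ± 0.0990) and ATP5G3 (2.55 ± 0.173), which did not differ beyond their spread. SDHA (47.7 ± 1.22) was above SDHB (16.1 ± 0.829) and SDHD (4.39 ± 0.303). Merged exons include rare long transcript forms (14160 bases for SDHC, 9715 for UQCRB and 10908 for ATP5A1), so these RPKM values can understate such genes. ATP5G3 has 6780 merged bases against 2615 for ATP5G1, and in CPM it lay above ATP5G1 (17.3 ± 1.17 against 6.55 ± 0.259 in WT). Calls were also counted by level. Of the 7 subunits at 200 CPM or more in WT, 3 rose, 1 fell and 3 did not pass. Of the other 29, 2 rose, 18 fell and 9 did not pass. Shares of all genes above and below 200 CPM were not computed, so these counts have no background beside them. Across the 36 genes, Spearman's rho between WT CPM and log2 fold change was 0.52, and over all 23689 tested genes it was -0.37. Both are descriptions across genes, which share the same libraries, and level and fold change share the WT counts.

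Several of these genes share sequence or positions with other entries, which limits how surely their reads were assigned. Of the 36, 18 share exon positions with another entry, and 9 share at least 10% of their merged exon length with a single other entry: COX8A, UQCRQ, ATP5J, ATP5O, COX6A1, SDHD, UQCR11, ATP5H and ATP5F1. Whether the counting used strand is not known from the sources used here, and reads of partners on opposite strands then cannot be told apart, such as ATP5J and GABPA (413 shared bases, 20.2% of ATP5J), UQCRQ and GDF9, or ATP5F1 and WDR77. Of these partners GABPA (log2 fold change -0.20), GDF9 (-0.29) and WDR77 (-1.51) fell too, GABPA not under library totals. SDHC, which rose, shares 774 bases (5.47% of its length) with CFAP126 on the opposite strand, an entry only 774 bases long. CFAP126 rose as well (12.9 ± 0.765 to 19.2 ± 1.85 CPM, 0.57, edgeR adjusted p = 1.37e-06). KCTD2, which shares positions with ATP5H on the opposite strand, did not pass (0.08). For 26 of the 36 genes the table lists pseudogenes by name, and UQCRHL was grouped with those of UQCRH, 101 entries in all. In 5 cases these entries held over 3% of the joint count: SDHA, UQCRH, COX6C, ATP5G1 and COX6A1. For UQCRH, UQCRHL alone held 7136 of their 7313 counts. UQCRHL is not named as a pseudogene and is also counted below among the other subunits and isoforms. Adding those reads to the parent gene changed no call among the 36.

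Other genes of the pathway were counted over whole lists. Each count below stands beside the background given above, 30.1% called higher and 29.0% lower over all genes, and 29.2% and 50.7% among genes of at least 10 CPM. Among 17 other subunits and isoforms of complexes II to V, 12 could be tested, of which 2 rose and 4 fell (median log2 fold change -0.07). NDUFA4L2, a hypoxia-inducible relative of the complex IV subunit NDUFA4, rose from 3.23, 2.82 and 2.76 to 35.5, 32.6 and 31.4 CPM (3.49, SE 0.091, edgeR adjusted p = 6.31e-21), while NDUFA4 itself did not pass (-0.22, edgeR adjusted p = 0.215). The hypoxia-inducible isoform COX4I2 of COX4I1 had at most 2 counts in any library. The ATP synthase accessory genes USMG5 (-0.71), ATP5S (-0.38) and C14orf2 (-0.36) fell. ATP5E, the epsilon subunit, fell as well (-0.32). COX6B2, a testis isoform that shares exon positions with another entry, rose from 0.462, 0.197 and 0.190 to 0.699, 1.04 and 0.837 CPM. Of the 6 mitochondrially encoded subunits of complexes III to V, MT-CYB, the cytochrome b of complex III, fell (1835 ± 99.0 to 1555 ± 39.1 CPM, -0.24, edgeR adjusted p = 6.37e-05), and 5 did not pass: MT-CO1 (0.08), MT-CO2 (-0.11), MT-CO3 (0.16), MT-ATP6 (0.11) and MT-ATP8 (-0.08), the latter 2 of which overlap. Under library totals MT-CO1 passed as higher (0.21), and MT-CO2 and MT-ATP8 turned positive (0.01 and 0.05).

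Assembly factors of complexes III, IV and V were mostly lower. For complex III, 5 of 6 fell and none rose (median -0.46). BCS1L, which inserts the Rieske protein, fell from 39.6, 38.8 and 38.2 to 16.8, 16.2 and 18.0 CPM (-1.19, SE 0.065, edgeR adjusted p = 1.08e-14), and UQCC3 (-0.94), LYRM7 (-0.51), UQCC2 (-0.41) and TTC19 (-0.21) fell as well, TTC19 not under library totals (-0.08, edgeR adjusted p = 0.337). For complex IV, 15 of 25 fell and 5 rose (median -0.37). Among genes of at least 5 CPM, COA7 showed the lowest value, from 123, 120.2 and 129 to 41.0, 44.9 and 42.6 CPM (-1.53, SE 0.051, edgeR adjusted p = 7.73e-19), followed by COX10, which makes heme O (-1.195), TACO1, an activator of COX1 translation (-1.07), and COX16 (-0.84). The rises were in PET100 (0.45), COA5 (0.42), SURF1 (0.29), COX15 (0.29) and COX20 (0.13). With DESeq2, SURF1 (adjusted p = 0.0605) and COX20 (adjusted p = 0.106) did not pass, which left 3 rises and 16 falls in this list. COX20 had overlapping groups and shares 72.0% of its merged exon length with HNRNPU, which held 502465 counts against 21459. For complex V, 3 of 5 fell and none rose, namely TMEM70 (12.1 ± 0.545 to 5.03 ± 0.269 CPM, -1.26), TMEM242 (-0.93) and ATPAF1, the chaperone of the beta subunit (-0.32). The complex II factors divided, with SDHAF3 (-0.75) and SDHAF2 (-0.50) lower and SDHAF1 (0.73) and SDHAF4 (0.79) higher. Under library totals 4 of 6 complex III, 13 of 25 complex IV and 3 of 5 complex V factors were lower, and the calls of complex II factors were the same 2 and 2. The share of falls in these lists under TMM scaling should be read beside the 50.7% among genes of at least 10 CPM, although some listed factors lay lower. Under library totals 23.2% of all genes were called lower, and the share at 10 CPM was not computed.

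The mobile carrier cytochrome c, which links complexes III and IV, had a lower log2 fold change than any of the 36 subunits. CYCS measured 293, 291 and 302 CPM in WT and 134, 128 and 148 CPM in siSRSF2 libraries (2.16-fold lower, log2 -1.11, SE 0.050, edgeR adjusted p = 2.18e-16). In its list with ubiquinone synthesis, 6 of 14 genes fell and 4 rose (median -0.15). PDSS1, which builds the ubiquinone tail, and COQ7 fell (-1.38 and -0.66), and ADCK3, a kinase-like factor of ubiquinone synthesis, rose (16.9 ± 1.17 to 40.8 ± 3.24 CPM, 1.27), as did COQ10A (0.65), ADCK4 (0.39) and COQ5 (0.26). Of 13 citric acid cycle enzymes outside complex II, 9 fell and 1 rose (median -0.25), with IDH3A (-0.63), SUCLG1 (-0.49) and FH, the enzyme after complex II (-0.49), lowest and SUCLG2 (0.31) higher. Of 7 carriers and porins, 4 fell and 1 rose, the falls being SLC25A4 (-0.60), VDAC3 (-0.49), VDAC1 (-0.46) and SLC25A5 (-0.25) and the rise SLC25A6 (0.23). Under library totals 7 of 13 citric acid cycle enzymes and 3 of 7 carriers and porins were lower, SLC25A5 no longer among them (-0.12, edgeR adjusted p = 0.0713). The 9 falls of 13 and 4 of 7 stand beside 50.7% of genes of at least 10 CPM.

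Regulators of respiratory chain genes were mostly lower. Of 12, 9 fell and 2 rose (median log2 fold change -0.60, beside -0.18 for the subunits; under library totals -0.47 and -0.05), where 50.7% of genes of at least 10 CPM were called lower. TFB2M, a mitochondrial transcription factor (-1.30), TFAM, which packages and transcribes mitochondrial DNA (85.9 ± 2.75 to 39.9 ± 1.46 CPM, -1.11), and PPARGC1B, a coactivator of mitochondrial genes (-1.10), fell. PPARGC1A, which encodes a related coactivator, rose from 6.32, 5.58 and 5.73 to 16.1, 14.4 and 17.2 CPM (1.43, SE 0.098, edgeR adjusted p = 1.15e-12), and TFB1M rose by less (0.44). NRF1 fell (10.3 ± 0.252 to 6.81 ± 0.792 CPM, -0.59), and GABPA fell by less (33.1 ± 0.994 to 28.8 ± 0.946 CPM, -0.20), a fall that did not pass under library totals (-0.08, edgeR adjusted p = 0.314). Of 8 hypoxia genes that act on the respiratory chain, 7 could be tested, of which 5 rose and 1 fell, where 30.1% of all genes were called higher and 29.0% lower. Besides NDUFA4L2 these included PDK3 (1.79), PDK1 (1.47), kinases that keep pyruvate out of the citric acid cycle, and BNIP3 (1.78), a mitophagy receptor, and HIGD1A (0.39), while ISCU, an iron-sulfur scaffold, fell (-0.29). BCS1L, UQCC2, UQCC3, ATP5S, COX16, TMEM70, PDSS1, IDH3A, SDHAF2, SLC25A5, ATP5E, PET100, COX20 and HIGD1A share over 10% of their merged exon length with another entry, so their values carry the same limit as above.

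**Figure D5:**
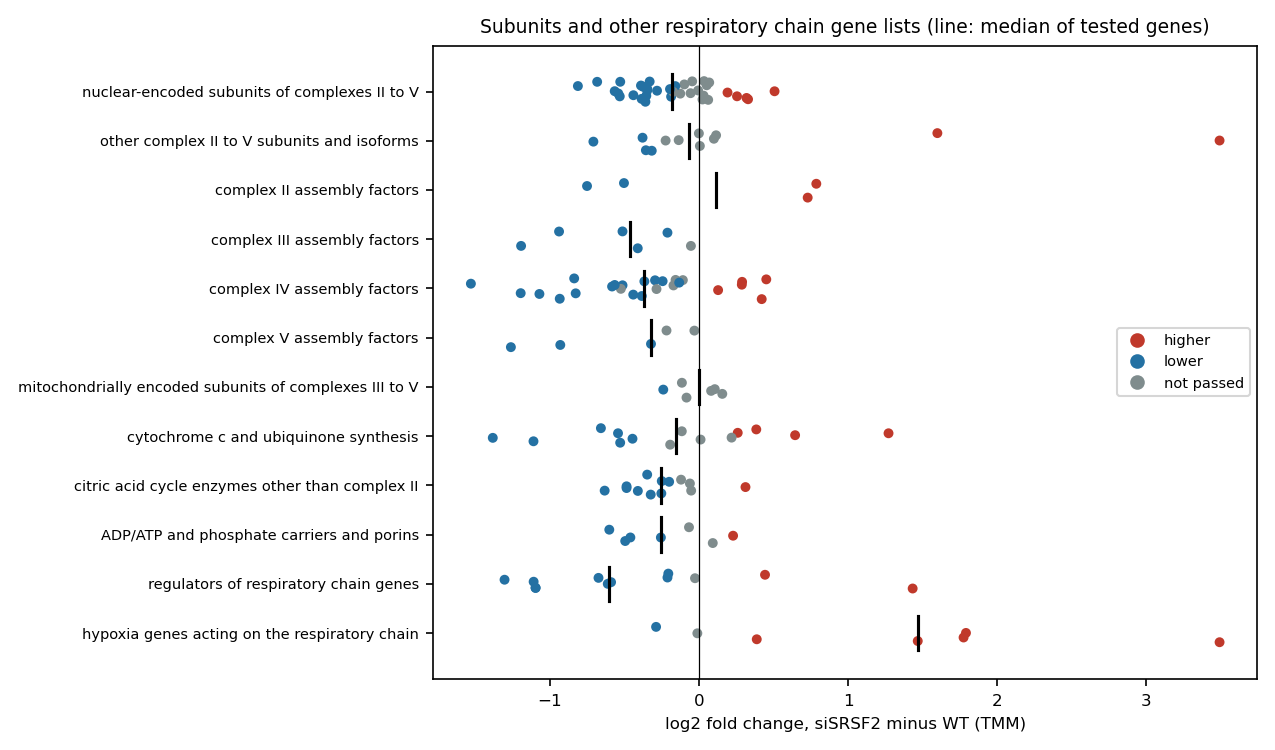
Log2 fold change of each tested gene in the subunit list and 11 other respiratory chain lists (points coloured by call, black lines at the median of each list). The subunits lie between -0.81 and 0.51, while the regulators and the complex IV assembly factors reach -1.30 and -1.53 and NDUFA4L2 reaches 3.49.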

How the data were processed

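Per the labels' protocols, RNA came from TRI Reagent isolation and libraries from a SMARTER kit for mRNA. The deposited table holds un-normalized read counts for each gene name, with merged exon positions and lengths. HISAT2 2.0.5 and featureCounts 1.5.0-p3 are named in the submitters' processing notes, which also name the mouse build mm10. The gene names and positions in the table are human: 93.2% of the 36027 names that GENCODE 29 (GRCh38) holds once have identical start and end there. Strand setting and multi-mapping rules were not given in the sources used here.

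A fit was made in R 4.3.3 with edgeR 4.0.16 (filterByExpr with a minimum count of 10, TMM scaling, robust quasi-likelihood F test, group as the only term, Benjamini-Hochberg adjustment over 23689 genes, threshold 0.05). The filter kept 99.9% of counts, and the common biological coefficient of variation was 6.27%. Each SE is the size of the log2 fold change over the square root of F, with normal 95% intervals. RPKM divides TMM-scaled CPM by the merged exon length. In any 1 library, 3 counts equal 0.063 to 0.11 CPM, a limit of counting alone, as reads carry no molecular identifiers. No 2 libraries of a group agreed within sampling noise (chi-square per gene 3.83 to 8.75).

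The genes, lists and tests were chosen with earlier results of these data known. Values are given for every one of the 36 genes. From each other list, up to 4 genes past the test with at least 5 CPM and the largest change were named, with all mitochondrially encoded subunits; 1 gene so chosen is not reported here. NDUFA4, COX4I2, COX6B2, ATP5E, SDHAF1, SDHAF4, TTC19, PET100, COA5, SURF1, COX15, COX20, COQ10A, ADCK4, COQ5, SUCLG2, SLC25A6, TFB1M, HIGD1A, ISCU, NRF1, GABPA, GDF9, WDR77 and the marker and overlapping genes were added after their values were seen. The alternatives were DESeq2 1.42.0, RLE factors, library totals, no filter, a mean CPM of at least 1, a replicate block, omission of each library, a test against 1.2-fold, and pseudogene reads added to the parent gene. The fit was tested on simulated data. Promoters came from RefSeq (GRCh38.p14).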

Additional observations from a re-analysis of the deposited data

How the results depend on the processing

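Among the 36 subunits, DESeq2, RLE factors, the pseudogene reads and the replicate block changed no call or direction. Same-numbered libraries correlated at 0.0133, -0.0472 and -0.0457 in their deviations from the group means, and different-numbered ones between -0.0224 and 0.0662. Deviations from a group mean cancel out over its libraries, so these values cannot decide whether the samples were paired. With the replicate block, 5 subunits were higher and 19 lower, and over all genes 6927 were higher and 6770 lower. Leaving out each library in turn gave 4 to 6 higher and 17 to 20 lower subunits.

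Scaling by library totals gave 12 higher subunits, and the test against 1.2-fold gave 1 higher and 11 lower. The log2 ratios of summed CPM, siSRSF2 to WT, moved under library totals from 0.41 to 0.54 for complex II, from -0.085 to 0.044 for complex III, from 0.18 to 0.31 for complex IV, from -0.24 to -0.11 for complex V and from 0.06 to 0.19 for all 36. Without a filter on low counts 4 subunits were higher and 22 lower, and COX5B did not pass (0.12). The SDHA to SDHB difference was 0.99 with pseudogene reads added.

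Signs turned only in genes that had not passed. Under library totals these were UQCRC1 (0.074), UQCRC2 (0.033), UQCRH (0.12), COX6B1 (0.0047) and ATP5G2 (0.085). Without a filter they were UQCRB (-0.044), COX4I1 (-0.023), COX6A1 (-0.051), ATP5A1 (-0.040), ATP5H (-0.013) and ATP5O (-0.0055), and with a minimum mean CPM of 1, UQCRH (0.046) and ATP5G2 (0.0056). With a library left out, UQCRH ranged from -0.046 to 0.015, COX6A1 from -0.013 to 0.071, ATP5A1 from -0.014 to 0.061 and ATP5G2 from -0.13 to 0.024. The median log2 fold change of the 36 was -0.18 in the main fit, -0.05 under library totals and -0.25 without a filter. The cause of the turned signs was not tested. Apart from these signs, siSRSF2 libraries were shallower, and COX8A, with 44 to 136 counts, is the subunit that depth limits most.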

Other observations

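Entries that share sequence or positions with the subunits had levels of their own. The SDHA pseudogenes had smaller log2 fold changes than SDHA (0.51): SDHAP1 was at 34.6 ± 0.687 CPM in WT and 38.3 ± 3.40 CPM in siSRSF2 cells (0.15, edgeR adjusted p = 0.0419, with overlapping groups), SDHAP2 at 27.8 ± 0.538 and 28.5 ± 2.37 CPM (0.04, 0.667) and SDHAP3 at 4.95 ± 0.606 and 6.73 ± 0.610 CPM (0.45, 0.00323). SDHAP1 did not pass with DESeq2 (adjusted p = 0.103). The difference between SDHA and its pseudogenes was not tested. COX6CP17, a pseudogene of COX6C, rose (6.72 ± 0.578 to 10.3 ± 1.43 CPM, 0.62, edgeR adjusted p = 2.56e-05), and COX6CP1, another, did not pass (4.15 ± 0.526 and 4.19 ± 0.633 CPM, 0.01, edgeR adjusted p = 0.953).

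Of 9 entries on the same strand that share exon positions with a subunit, 5 fell, 1 rose, 2 did not pass and 1 had too few counts to test. Over all genes tested 29.0% were called lower and 30.1% higher, and among genes of at least 10 CPM 50.7% and 29.2%. AP000721.4, which covers part of COX8A, went from 42.0 ± 4.11 to 25.1 ± 0.810 CPM (log2 fold change -0.74, edgeR adjusted p = 3.6e-10), and AC005943.2, which covers part of UQCR11, from 124 ± 6.32 to 73.4 ± 8.20 CPM (-0.75, edgeR adjusted p = 2.42e-08). The readthrough entry ATP5J2-PTCD1 fell from 75.8 ± 6.07 to 51.9 ± 3.08 CPM (-0.54, edgeR adjusted p = 1.41e-08), and PTCD1 (-0.80) and AP002884.2, which covers part of SDHD (-0.63), fell too. The entry Y_RNA, which shares positions with ATP5G3, rose (0.18, edgeR adjusted p = 0.00443). Only 94 of its 79078 bases are shared with ATP5G3, and its reads at that place were not separated from the rest. AP000304.12, which covers part of ATP5O (0.00), and AL021546.6, which covers part of COX6A1 (-0.09), did not pass. For COX8A and UQCR11 the partner held more reads than the subunit entry (8432 against 566 and 24815 against 4925 counts over the 6 libraries). The same held for ATP5J2-PTCD1 beside ATP5J2 (15903 against 13328), AL021546.6 beside COX6A1 (10828 against 9605) and Y_RNA beside ATP5G3 (14306 against 3602). The part of shared reads in these values was not tested.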
